A study of Mus musculus with 6 samples.

Results

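The collagen genes, 44 of the 19938 genes that the arrays measured by a probe set with a single gene symbol, were compared between 3 hearts of Ppif-/- mice and 3 hearts of WT mice. They were chosen by symbol alone (Col, a number, a, a number), and where a gene had several probe sets the one with the brightest mean of the 6 arrays was read. These 44 genes had 46 such probe sets, since Col6a5 and Col6a6 had a further one each. All mice were 8 weeks old and labelled as strain C57BL/6, and the labels name no drug or procedure. The Ppif-/- mice lack cyclophilin D in every tissue and were moved onto C57BL/6 from Sv129. The labels give neither the number of backcrosses nor whether the WT mice were littermates. One Affymetrix Gene 1.0 ST array per heart gave log2 expression values, processed with RMA, which corrects background, equalises the arrays and combines a probe set's probes. The study sought transcripts that differ before the heart muscle begins to fail.

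Collagens are the main structural proteins of the extracellular matrix and share a rod-like helix built of chains with glycine at regular spacing. In the heart, fibroblasts make most of the fibrillar types, which carry tension between myocytes, while endothelial and mural cells deposit network types in basement membranes. New chains are hydroxylated and folded in the endoplasmic reticulum, secreted, freed of their propeptides by proteases and then cross-linked. Build-up of fibrillar collagen is known as fibrosis, a common feature of the failing heart.

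Ppif itself checked the labels: its log2 values were 6.00, 6.25 and 6.44 in the Ppif-/- hearts and 11.44, 11.28 and 11.49 in the WT hearts (limma adjusted p = 2.97e-06). Cardiomyocyte markers were high in every heart, with the mean of 8 markers between 13.48 and 13.53. WT heart 2 stood apart in its group. It lay at least 0.5 log2 units below both other WT hearts at 134 of the 23410 probe sets tested and above both at 267, against 27 and 24 for WT heart 1 and 32 and 30 for WT heart 3. Ppif-/- heart 1 came next, with 62 below and 220 above. Col3a1 and Col15a1 were the 2 collagen genes among the 134, and 0 collagen genes were among the 267. Sign counts of gene groups, and the differences of collagen genes described in full that change markedly, are therefore given without it too.

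None of the collagen genes changed past the threshold. In limma, 0 of 44 reached an adjusted p of 0.05, where 1.09% of all tested probe sets did. At an unadjusted p under 0.05 there were 2, Col6a6 higher and Col28a1 lower, which is 4.55% of the genes against 12.9% of all tested probe sets. The groups did not overlap for 4 genes (9.09%), against 19.8% of all tested probe sets. The Ppif-/- hearts were all above the WT hearts for Col3a1, Col4a3 and Col6a6 (9.21% of all tested probe sets) and all below for Col28a1 (10.6%). Differences, always Ppif-/- minus WT on the log2 scale, ran from -0.29 for Col28a1 to 0.38 for Col3a1, so no collagen gene differed by more than 1.30-fold. The limma 95% intervals of the differences extended 0.20 to either side at their median, and the widest reached up to 0.87, for Col3a1. The smallest adjusted p was 0.263.

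The differences leaned upward in these hearts, by small amounts. Of the 44 genes, 36 lay above 0, with a median of 0.045, while 49.2% of all tested probe sets lay above 0, with a median of -0.0023. Without WT heart 2 the count was 25 and the median 0.011, and without Ppif-/- heart 3 they were 24 and 0.017. Collagen genes share arrays and cells of origin, so they are not independent observations. Of the 10 genes with the highest array values 10 lay above 0, between 0.12 and 0.38, and of the other 34 genes 26 did, between -0.29 and 0.19. Without WT heart 2 these counts were 9, between -0.018 and 0.13, and 16, and without Ppif-/- heart 3 they were 10 and 14. Array values of different probe sets do not rank transcripts by abundance, and brightness served here only to separate clear from dim signals. The median of all tested probe sets was 6.62, and 23 collagen genes lay above it and 21 below. Differences above 0 were found at 22 of those 23 (17 without WT heart 2) and at 14 of those 21 (8 without it).

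**Figure D1:**
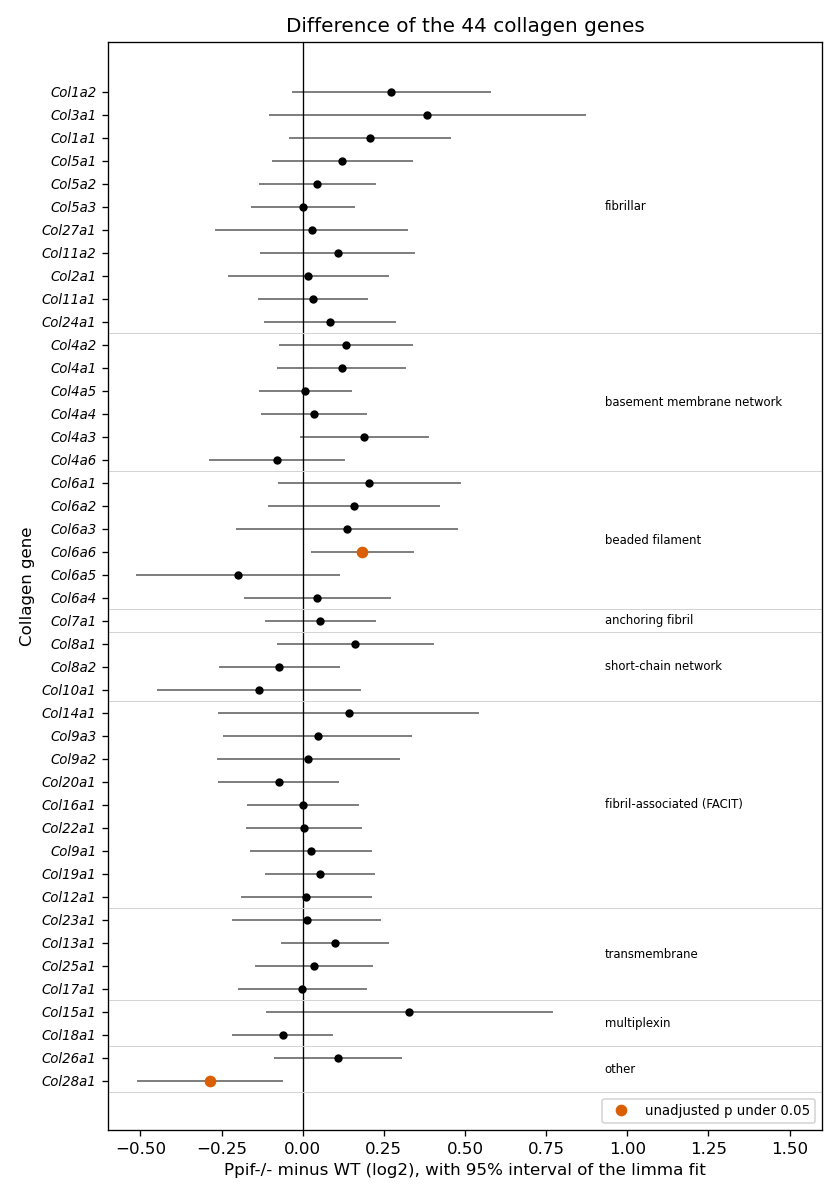
Difference of each of the 44 collagen genes (Ppif-/- minus WT, log2, horizontal axis) with the 95% interval of the limma fit, sorted by structural class. The intervals of Col6a6 (0.18) and Col28a1 (-0.29), drawn in orange, leave out 0 before adjustment, and those of the other 42 genes span it.

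The fibrillar collagens, which form the load-bearing fibres, lay above 0 in sign with all 6 hearts (11 of 11, median 0.084), but 8 of 11 did without WT heart 2 (median 0.020) and 7 of 11 without Ppif-/- heart 3. In limma 0 passed, either with adjustment or at an unadjusted p under 0.05. Col1a1, the main chain of type I collagen, stood at 9.68, 9.64 and 9.75 in the Ppif-/- hearts and at 9.54, 9.25 and 9.66 in the WT hearts. WT heart 2 was the lowest of all, and WT heart 3 lay among the Ppif-/- hearts. The difference was 0.21 ± 0.11 (SE; limma adjusted p = 0.472), with an interval from -0.04 to 0.46, and was 0.091 without WT heart 2.

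Col1a2, the partner chain of type I, had values of 10.10, 9.86 and 9.96 against 9.81, 9.41 and 9.89. The order of the hearts was much the same, with WT heart 2 lowest and WT heart 3 above Ppif-/- heart 2. Its difference was 0.27 ± 0.13 (adjusted p = 0.437), and 0.13 without WT heart 2. Col3a1, which forms thinner, more compliant fibres alongside type I, was at 9.99, 9.87 and 9.90 against 9.78, 8.98 and 9.85. Each Ppif-/- heart was above each WT heart, yet WT hearts 1 and 3 were close below and WT heart 2 lay far below them. The SD was 0.062 among Ppif-/- and 0.48 among WT hearts, and the difference of 0.38 ± 0.21 did not pass (adjusted p = 0.496). Without WT heart 2 it was 0.10, and without WT heart 3 it was 0.54.

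Col5a1 and Col5a2 encode chains of type V, which sets fibril diameter, and differed by 0.12 and 0.045 (0.026 and -0.017 without WT heart 2), while the third chain, Col5a3, differed by 0.0011. The other fibrillar genes, Col2a1, Col11a1, Col11a2, Col24a1 and Col27a1, are best known from cartilage and bone. Their differences ran from 0.018 for Col2a1 to 0.11 for Col11a2.

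**Figure D2:**
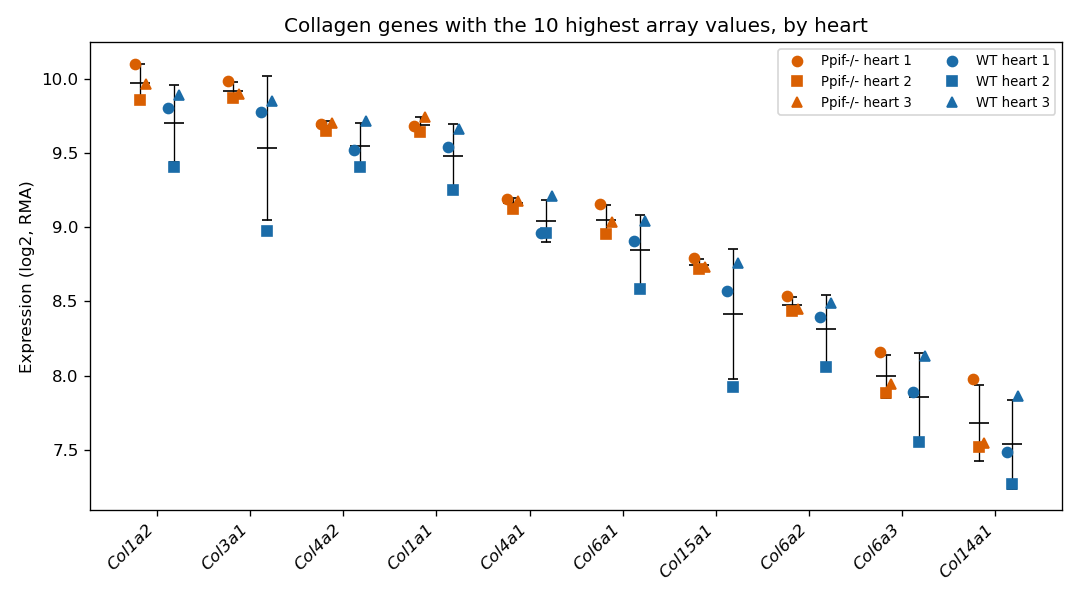
Log2 expression (vertical axis) of the 10 collagen genes with the highest array values in each heart, with Ppif-/- hearts in orange and WT hearts in blue; bars give the group mean and SD (n = 3). WT heart 2 (blue squares) is the lowest of the 6 hearts for all 10 genes, and WT heart 3 lies at or near the Ppif-/- hearts.

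The same heart was the lowest of all 6 for each of the 10 collagen genes with the highest array values. Averaged over those 10 genes, the hearts deviated from the mean of all 6 by 0.20, 0.031 and 0.087 (Ppif-/-) and by -0.047, -0.39 and 0.13 (WT). The WT SD exceeded the Ppif-/- SD at 10 of these 10 genes and at 16 of the other 34. Among the other 34 genes, WT heart 2 was the lowest of all 6 hearts at 13, and its mean deviation was -0.071. The choice of WT hearts changed which genes stood out before adjustment. Without WT heart 2, 0 collagen genes were higher and 2 lower at an unadjusted p under 0.05, Col28a1 and Col6a5, where 5.49% of all tested probe sets were higher and 5.94% lower (11.4% in either direction). Without WT heart 3 there were 8 higher and 1 lower (20.5% of the genes, against 11.4% of all tested probe sets, 5.49% higher and 5.92% lower). The 8 were Col1a1, Col1a2, Col3a1, Col4a1, Col4a2, Col6a1, Col6a6 and Col15a1. Without Ppif-/- heart 1, 2 or 3 or WT heart 1 there were 2, 1, 1 and 2 such genes, where 12.5%, 11.1%, 11.2% and 11.6% of all tested probe sets had such a p. In each of these 6 fits 0 collagen genes passed with adjustment in limma, against 0.73%, 0.594%, 0.56%, 0.636%, 0.675% and 0.628% of all tested probe sets (without Ppif-/- hearts 1 to 3, then WT hearts 1 to 3).

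**Figure D3:**
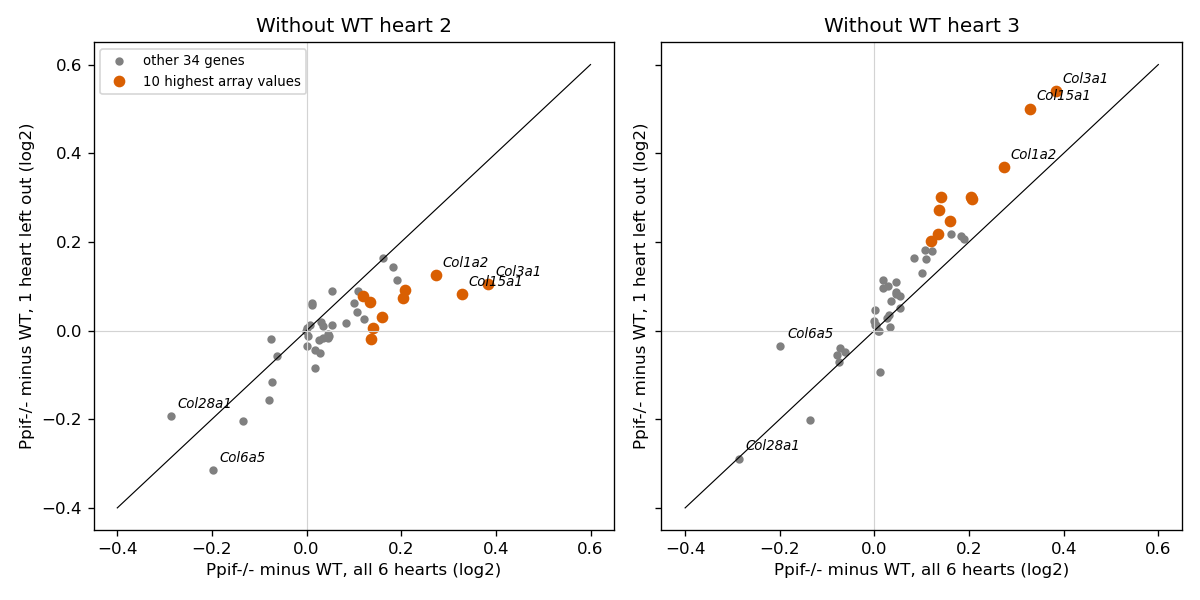
Difference of each collagen gene with all 6 hearts (horizontal axis, Ppif-/- minus WT, log2) against the difference with 1 WT heart left out (vertical axis), with the line of equal values. Without WT heart 2 the genes with the 10 highest values (orange) lie closer to 0, as Col3a1 at 0.10 instead of 0.38, and without WT heart 3 they lie higher, as Col3a1 at 0.54.

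The 3 collagen genes that lay furthest below the other WT hearts in WT heart 2 were Col3a1 (0.80 below the lower of the others), Col15a1 (0.64 below) and Col1a2 (0.40 below). The 250 bases before their annotated starts are shown because these genes were lowest together in WT heart 2. The sequences are from RefSeq on GRCm38.p6, 5′ to 3′ on the strand of the gene, and capitals mark every match, on either strand, to CCAAT, to the letters TATAAA, or to the letters GGGCGG (none of these matches overlap).
Col3a1, chr1:45311288-45311537, plus strand: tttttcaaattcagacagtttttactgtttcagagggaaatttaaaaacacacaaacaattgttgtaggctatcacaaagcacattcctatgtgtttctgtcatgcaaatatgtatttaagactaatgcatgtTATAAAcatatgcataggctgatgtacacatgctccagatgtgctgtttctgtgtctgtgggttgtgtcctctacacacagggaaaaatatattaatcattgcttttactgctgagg
Col15a1, chr4:47207762-47208011, plus strand: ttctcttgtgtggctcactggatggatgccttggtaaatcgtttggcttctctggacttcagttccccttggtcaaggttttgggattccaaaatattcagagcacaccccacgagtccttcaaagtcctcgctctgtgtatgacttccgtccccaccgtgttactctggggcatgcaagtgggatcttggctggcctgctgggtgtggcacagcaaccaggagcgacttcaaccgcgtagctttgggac
Col1a2, chr6:4505368-4505617, plus strand: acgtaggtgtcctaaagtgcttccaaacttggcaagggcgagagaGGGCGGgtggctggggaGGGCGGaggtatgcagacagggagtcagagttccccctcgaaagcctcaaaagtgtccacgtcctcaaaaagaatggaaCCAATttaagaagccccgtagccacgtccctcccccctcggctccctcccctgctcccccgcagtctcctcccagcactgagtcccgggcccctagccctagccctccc
The letters TATAAA were found once in Col3a1, CCAAT once and GGGCGG at 2 places in Col1a2, and none of them in Col15a1. Over all 32851 such windows of 250 bases, CCAAT or its reverse complement was in 33.8%, TATAAA in 12.4% and GGGCGG in 32.7%. Of 35 collagen genes with a window in the table, 13, 5 and 21 held them. These genes had 38 windows, and a gene was counted if any of its windows held the string. The counts of genes are thus not in the same unit as the shares of windows. None of these 3 strings was in all 3 windows, and the matches say nothing about which factors bind there.

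The type IV collagens build the sheet-like network of basement membranes, and 5 of the 6 lay above 0 in sign, also without WT heart 2 (medians 0.077 and 0.038), with 0 past an unadjusted p of 0.05 in limma. Col4a1 and Col4a2, whose chains form the network around capillaries and myocytes, lie next to each other on chromosome 8. Col4a1 had values of 9.19, 9.12 and 9.18 against 8.96, 8.96 and 9.21. Here WT hearts 1 and 2 were equally low, and WT heart 3 was the highest of all 6. Its difference was 0.12 ± 0.085 (adjusted p = 0.615), and 0.077 without WT heart 2. Col4a2 had values of 9.70, 9.65 and 9.70 against 9.52, 9.41 and 9.72, with a difference of 0.13 ± 0.089 (adjusted p = 0.585), and 0.063 without that heart. Col4a3, a chain of the network of kidney and lung, was dim at 5.91, 5.89 and 5.81 against 5.80, 5.53 and 5.71. The groups were just apart, by less than the range among the WT hearts, and the difference of 0.19 ± 0.085 did not pass (unadjusted p = 0.0574, adjusted p = 0.407) and was 0.11 without WT heart 2. Col4a4 and Col4a5 differed by 0.034 and 0.0079, and Col4a6 by -0.080.

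Type VI collagen forms beaded filaments that link cells to the fibres around them, and 5 of its 6 genes lay above 0 in sign, or 3 of 6 without WT heart 2. Col6a1 was at 9.16, 8.95 and 9.04 against 8.91, 8.58 and 9.04 (0.20 ± 0.12, adjusted p = 0.538). Col6a2 was at 8.54, 8.43 and 8.45 against 8.39, 8.05 and 8.49 (0.16 ± 0.11, adjusted p = 0.619). Col6a3 was at 8.16, 7.88 and 7.94 against 7.89, 7.55 and 8.13 (0.14 ± 0.15, adjusted p = 0.771). All of them overlapped between the genotypes, with WT heart 2 lowest each time, and without that heart the differences of Col6a1, Col6a2 and Col6a3 were 0.074, 0.030 and -0.018.

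Col6a6 was the 1 collagen gene with a higher level in Ppif-/- hearts at an unadjusted p under 0.05, where 6.1% of all tested probe sets were higher. Its values were 7.49, 7.56 and 7.54 in Ppif-/- hearts and 7.37, 7.27 and 7.41 in WT hearts. The groups were narrowly apart, and WT heart 2 was again the lowest. The difference was 0.18 ± 0.069, a 1.14-fold level (unadjusted p = 0.0291, adjusted p = 0.314), and the unadjusted p was above 0.05 without Ppif-/- heart 2 or 3 or WT heart 1 or 2 (0.0565 to 0.0863). The other probe set of Col6a6 differed by 0.098 (unadjusted p = 0.199). Its neighbours on chromosome 9, Col6a5 and Col6a4, differed by -0.20 and 0.045 (-0.32 and -0.0072 without WT heart 2), and WT heart 3 alone was high for Col6a5 (6.62, against 6.05 to 6.20 in the others). The second probe set of Col6a5 differed by -0.082.

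Col28a1, a beaded collagen known from the sheaths of peripheral nerves, was the 1 member with a lower level at an unadjusted p under 0.05, where 6.81% of all tested probe sets were lower. It was dim in every heart, at 5.61, 5.66 and 5.64 in Ppif-/- and at 5.74, 6.11 and 5.92 in WT hearts. The Ppif-/- values were tightly grouped and all lay below the WT values, of which WT heart 2 was the highest. The difference was -0.29 ± 0.097 (unadjusted p = 0.0191, adjusted p = 0.263). Without WT heart 2 it was -0.19, and in the fits without 1 heart the unadjusted p ran from 0.00409 to 0.0492. Of 4 listed Schwann cell markers, 2 were measured, and their mean lay between 7.47 and 7.67 in Ppif-/- hearts and between 7.79 and 7.82 in WT hearts. The sodium channel gene Scn7a, chosen after its value was seen, differed by -0.34 ± 0.070 (adjusted p = 0.0792), and the other measured marker, Sox10, a transcription factor of glia, overlapped between the groups (-0.10, adjusted p = 0.802). In bulk heart tissue, fewer cells of a type and less RNA per cell cannot be told apart, and the part of these markers in the result for Col28a1 was not tested.

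The multiplexins are basement membrane collagens whose C-terminal fragments inhibit vessel growth. Col15a1, found around capillaries and muscle fibres, stood at 8.79, 8.72 and 8.73 against 8.57, 7.92 and 8.76. The Ppif-/- hearts were close together, WT heart 3 lay among them and WT heart 2 far below. The difference of 0.33 ± 0.19 did not pass (adjusted p = 0.525) and was 0.082 without WT heart 2 and 0.50 without WT heart 3. Col18a1, the source of endostatin, differed by -0.062.

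Among the fibril-associated collagens, which decorate the surface of fibres, 8 of 9 lay above 0 in sign with all 6 hearts, 3 of 9 without WT heart 2 and 2 of 9 without Ppif-/- heart 3, and 0 passed an unadjusted p of 0.05 in limma. Col14a1, a marker of cardiac fibroblasts, was at 7.97, 7.52 and 7.54 against 7.48, 7.27 and 7.86. Ppif-/- heart 1 and WT heart 3 were high within their groups, and the difference of 0.14 ± 0.17 (adjusted p = 0.802) was -0.0069 without Ppif-/- heart 1 and 0.0068 without WT heart 2. Col20a1 had the smallest p of the class, with values of 6.58, 6.60 and 6.70 against 6.58, 6.81 and 6.71. The groups overlapped, and WT heart 2 was the highest (-0.074 ± 0.081, adjusted p = 0.77; -0.019 without that heart). Col12a1, a collagen of tendon and other loaded tissue, was dim and differed by 0.011.

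The remaining classes hold collagens of skin, cartilage, cornea and cell surfaces. Apart from Col28a1, described above and classed with Col26a1, 0 of their members passed an unadjusted p of 0.05 in limma. Col8a1, a short-chain collagen of vessel walls that rises in cardiac pressure overload, was at 7.63, 7.35 and 7.31 against 7.15, 7.28 and 7.38. Ppif-/- heart 1 was the highest and the groups overlapped (0.16 ± 0.10, adjusted p = 0.572). Its partner Col8a2 differed by -0.072 and the growth plate collagen Col10a1 by -0.14. Of the 4 transmembrane collagens, Col13a1, found at muscle junctions, had the smallest p, at 6.35, 6.41 and 6.29 against 6.27, 6.17 and 6.31. The groups overlapped, with WT heart 2 lowest (0.10 ± 0.072, adjusted p = 0.618; 0.061 without that heart), and the other transmembrane genes differed by -0.0010 to 0.035. Col7a1, the anchoring fibril of skin, was at 6.59, 6.54 and 6.69 against 6.59, 6.47 and 6.60. It overlapped too (0.054 ± 0.074, adjusted p = 0.825; 0.014 without WT heart 2), and Col26a1 differed by 0.11.

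**Figure D4:**
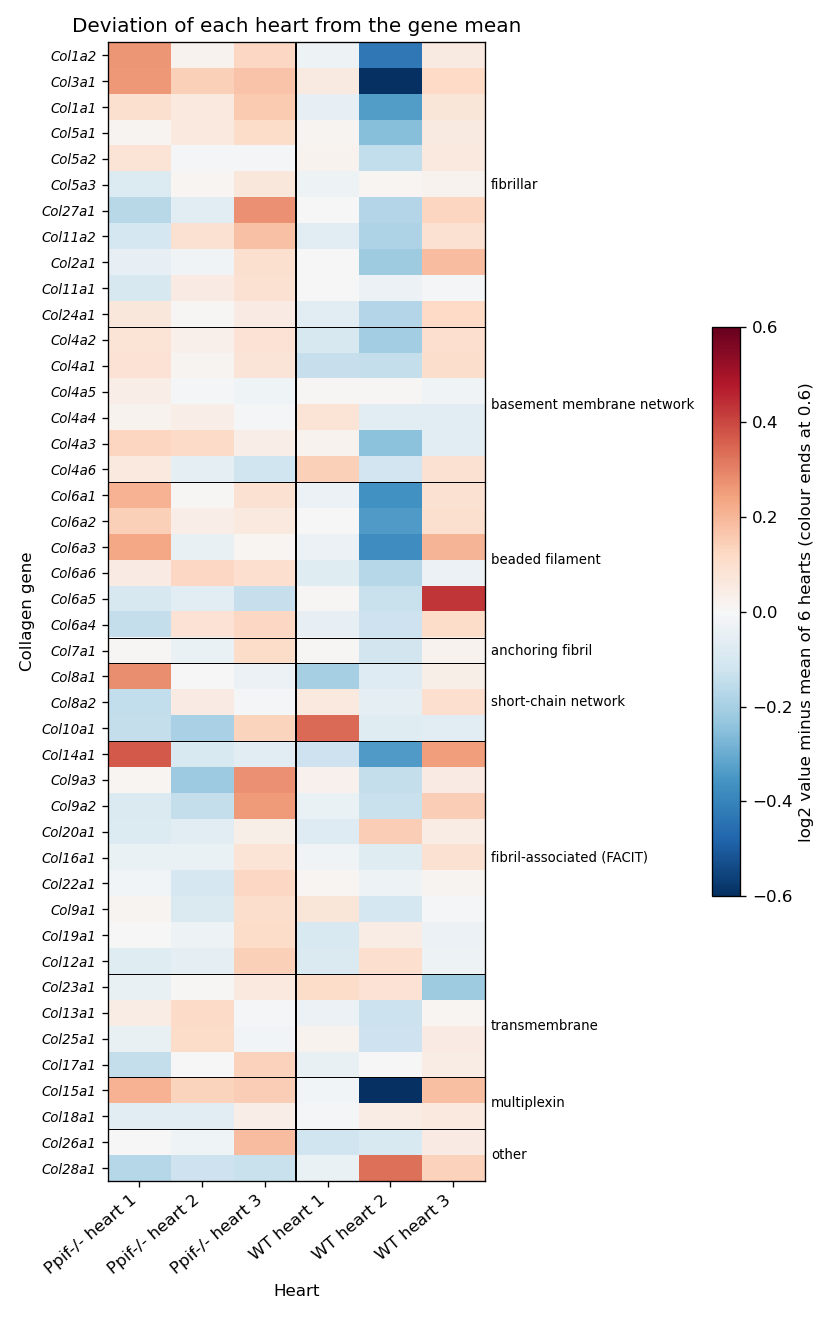
Deviation of each heart (columns) from the mean of all 6 hearts for each collagen gene (rows, sorted by class), in log2 units, with red above and blue below the mean. WT heart 2 is the bluest column, mainly at fibrillar and beaded filament genes (class means -0.25 and -0.25), and is red at Col28a1.

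Genes of one class that neighbour each other in the genome did not always differ alike. By their RefSeq positions, 8 pairs of collagen genes, 15 genes in all, were next to each other among protein-coding genes, and 5 of the pairs shared the sign of their difference. Col6a1 and Col6a2 (0.20 and 0.16) were such a pair, whereas Col3a1 and its neighbour Col5a2 (0.38 and 0.045) shared the sign but not the size. Without WT heart 2 the signs parted for Col3a1 and Col5a2 (0.10 and -0.017) and for Col9a1 and Col19a1 (-0.021 and 0.089). Col6a5 and Col6a4 then shared theirs (-0.32 and -0.0072). Since 36 of the 44 genes lay above 0 with all 6 hearts, a shared sign says little about neighbours.

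The genes that process, bind or induce collagen were taken from 8 lists, of which 83 of 87 genes were measured. In these lists 2 genes passed with adjustment over all tested probe sets, both higher (2.41% against the 1.09% of all tested probe sets), and at an unadjusted p under 0.05 there were 7 higher and 5 lower, which is 14.5% against the 12.9% of all tested probe sets. Both called genes act on the propeptides, a list of 8 genes with 7 measured and a median of 0.076. Adamts3, a protease known to cut procollagen N-propeptides and to activate VEGF-C, stood at 8.16, 8.21 and 8.24 in Ppif-/- and at 7.73, 7.54 and 7.39 in WT hearts. The groups were well apart, and Adamts3 rose 1.57-fold (0.65 ± 0.093, adjusted p = 0.0208). Pcolce2, an enhancer of C-propeptide removal, stood at 9.01, 8.97 and 9.02 against 8.49, 8.55 and 8.66. It rose 1.35-fold, with each Ppif-/- heart above each WT heart (0.43 ± 0.070, adjusted p = 0.0356). The call of Adamts3 was lost without any 1 heart but WT heart 1 (adjusted p = 0.0551 to 0.1), that of Pcolce2 whichever heart was left out (0.0623 to 0.137), and both when probe sets without a symbol were tested too (0.081 and 0.1).

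No gene of the lists on modification, folding and cross-linking passed in limma. Of 14 genes of procollagen hydroxylation and glycosylation, 0 had an unadjusted p under 0.05, and the smallest was that of Crtap, a partner of prolyl 3-hydroxylase (0.21 ± 0.10, unadjusted p = 0.0687). Among 11 genes of folding and export, Ppib, which encodes cyclophilin B, a prolyl isomerase of the endoplasmic reticulum that acts on procollagen, was at 9.93, 9.97 and 9.88 against 9.72, 9.62 and 9.76. The groups were apart, but the difference of 0.22 ± 0.070 did not pass (unadjusted p = 0.0126, adjusted p = 0.222). Tmem38b, a cation channel of that membrane, differed by -0.36 ± 0.13 (adjusted p = 0.283). Of 4 lysyl oxidases, which cross-link the fibres, 0 had an unadjusted p under 0.05. Lox was at 6.02, 5.81 and 5.68 against 6.10, 6.97 and 6.02, so that WT heart 2, the lowest heart for the bright collagens, was the highest for Lox (-0.53 ± 0.24, adjusted p = 0.405).

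Receptors, partners and inducers likewise held 0 genes past the threshold in limma. Ddr1, a receptor tyrosine kinase for collagen, differed by 0.38 ± 0.093 (unadjusted p = 0.00384, adjusted p = 0.136) and the integrin chain Itga11 by -0.34 ± 0.14. Both were the members of 9 receptors with an unadjusted p under 0.05. Among 10 laminin and other basement membrane partners of type IV collagen, Nid2, a nidogen that links laminin to that network, differed by 0.40 ± 0.094 (adjusted p = 0.116) and perlecan, Hspg2, by 0.23 ± 0.084 (adjusted p = 0.309). Nid2 lies on chromosome 14, as Ppif does, and their distance was not analysed here. For Nid2, loss of Ppif and Sv129 DNA kept around it cannot be told apart. Of 15 fibril-binding proteins, Prelp was the 1 with an unadjusted p under 0.05 (-0.21 ± 0.073). Of 13 inducers, Tgfb1, the classical inducer of collagen genes, differed by 0.30 ± 0.071 (adjusted p = 0.128). Srf and Ccn2, a transcription factor and a matricellular protein linked to fibroblast activation, differed by -0.30 ± 0.075 and -0.37 ± 0.13 (adjusted p = 0.135 and 0.277).

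**Figure D5:**
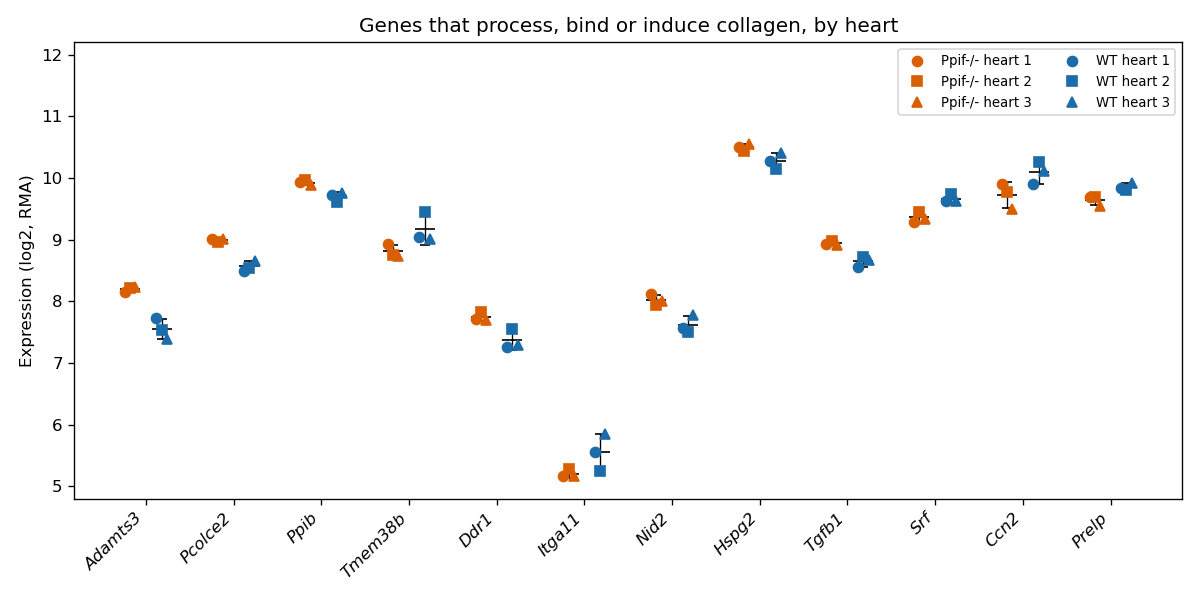
Log2 expression (vertical axis) of 12 genes that process, bind or induce collagen, in each Ppif-/- (orange) and WT (blue) heart, with group mean and SD (n = 3). Adamts3 and Pcolce2 passed the threshold, with each Ppif-/- heart above each WT heart; the other genes had an unadjusted p under 0.05 only.

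On average, markers of fibroblasts, the main source of fibrillar collagen, lay lower in the Ppif-/- hearts, while the collagen genes did not. Of 10 fibroblast markers, all measured, 0 were higher and 4 lower at an unadjusted p under 0.05 (Pdgfra, Pi16, Gsn and Mfap5). Of all tested probe sets, 6.1% were higher and 6.81% lower. The groups overlapped for Dcn, Dpt and Tcf21 (-0.034, -0.042 and -0.080) and for Lum, Ddr2 and Islr (-0.15, -0.13 and -0.20). Pdgfra, a growth factor receptor of fibroblasts chosen after its value was seen, fell by 0.44 ± 0.065 and was the 1 past the threshold (adjusted p = 0.0246, lost without any 1 heart at 0.0693 to 0.0991). The mean of the 10 markers was 9.06 to 9.26 in Ppif-/- and 9.37 to 9.42 in WT hearts, with WT heart 2 at 9.39 and no marker below 7.30 on average. By this mean WT heart 2 was within the WT range, while it was lowest for the bright collagens, but the single markers were split. WT heart 2 was the lowest WT heart for Lum, Islr and Dpt. It was the highest WT heart for Pdgfra, Pi16, Gsn, Mfap5, Ddr2, Tcf21 and Dcn. Of 6 markers of activated fibroblasts, 0 had an unadjusted p under 0.05 in limma, and their mean was 7.03 to 7.09 in Ppif-/- and 6.82 to 7.05 in WT hearts, lowest in WT heart 2. Postn, a matrix protein of that state that is also on the list of fibril-binding proteins, was at 7.37 in that heart and 7.89 to 8.44 in the others.

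Counts at an unadjusted p under 0.05 in the other marker lists are to be read against the same 6.1% higher and 6.81% lower, and their mean levels were not tested. Pericyte and smooth muscle markers (9 of 9 measured, 1 higher and 3 lower at an unadjusted p under 0.05, Tagln lower with adjustment, a call lost without any 1 heart at adjusted p = 0.0537 to 0.122) had a mean of 8.94 to 9.04 in Ppif-/- and 9.14 to 9.24 in WT hearts. Its 3 lower genes were Tagln, Myh11 and Cnn1 (-0.51, -0.53 and -0.48), and the 1 higher was Rgs5 (0.27). The others ran from -0.16 for Cspg4 to -0.014 for Pdgfrb and -0.0089 for Kcnj8. Pericytes and smooth muscle were not separated in this joint list, so its mean describes neither cell type alone. Endothelial markers (8 of 8, 1 higher and 0 lower) had a mean of 9.94 to 10.08 in Ppif-/- and 10.01 to 10.05 in WT hearts. Macrophage markers (7 of 7, 2 higher and 1 lower, Cd68 higher with adjustment, a call lost without any 1 heart at adjusted p = 0.0551 to 0.145) had 8.16 to 8.28 and 8.10 to 8.13. Atrial markers (4 of 4, 1 higher) had 7.07 to 7.38 and 6.85 to 6.89. The 1 higher was Nppa (0.68, limma adjusted p = 0.0681). Its adjusted p was 0.0138 without WT heart 2 and 0.161 to 0.195 without another heart. The groups overlapped for Myl4, Myl7 and Sln (0.37, 0.20 and 0.080). The means of epicardial (4 of 4, 2 higher) and valve or cartilage markers (6 of 6, 1 lower) overlapped between the groups. So did those of the 4 markers of skeletal muscle and the 2 of 3 of adipocytes (0 at an unadjusted p under 0.05 in limma). Singly, Wt1, Msln, Sox9 and Myh4 were higher in each Ppif-/- heart than in each WT heart, and Cnmd was lower. The groups did not overlap at 19.8% of all tested probe sets. The part of these cell types in the collagen values was not tested.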

How the data were processed

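Total RNA of 6 mouse hearts, 3 Ppif-/- and 3 WT as the sample titles give them, was read on 1 array each. The authors deposited RMA values on the log2 scale for 35557 probe sets, per the submitters' processing notes. Which software and filters they used is not stated in the sources at hand. RMA shrinks differences of dim probe sets. Detection calls and scan batches were not analysed here, so no batch could be tested.

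Gene names came from the array's annotation and were brought up to the GRCm38.p6 gene table through Entrez identifiers. All 23410 probe sets with a symbol (21789 of them with 1) were fitted in limma 3.58.1 under R 4.3.3 (lmFit, eBayes, 2-sided, no covariates) and adjusted by Benjamini-Hochberg over all of them, with a threshold of 0.05. The procedure was tested on simulated arrays. The number of arrays limits the precision. The p-values set the difference between the groups against the spread within them, which eBayes moderates over all probe sets fitted. Nothing says whether hearts shared a litter, so the results may not extend beyond these mice.

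The members, lists and tests were chosen with earlier results of these data known. Named are the 10 collagen genes with the highest values, those at an unadjusted p under 0.05, the smallest p of each other class, and from each partner list the called genes, else at most 3 at an unadjusted p under 0.05, else the smallest p. Alternatives were a replicate block, filters, other sets of probe sets, normalisations and variance models, array weights and leaving out each heart. Protein sequences were not analysed here.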

Additional observations from a re-analysis of the deposited data

How the results depend on the processing

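The count of 0 collagen genes past an adjusted p of 0.05 in limma was 0 under each of the 15 alternative fits. At an unadjusted p under 0.05 the count of 2 became 1 with a filter on low values, which kept 32 of the 44 genes. It was 1 (0 higher, 1 lower) with arrays centred on their medians and 3 (2 higher, 1 lower) with a variance trend. When 1 heart was left out it ran from 1 to 9 (9 without WT heart 3). The median difference of 0.045 was 0.12 over the 23 genes above the median of tested probe sets and 0.011 to 0.091 when 1 heart was left out. Among named collagen genes, 2 changed sign: Col14a1 without Ppif-/- heart 1 (-0.0069, up to 0.30 when another heart was left out) and Col6a3 without WT heart 2 (-0.018, up to 0.27). The count of all probe sets past the threshold, 254, was 160 with the replicate number as a block, 421 with the filter on low values, 131 with all probe sets tested, 453 with a variance trend, 386 with array weights, and 131 to 171 when 1 heart was left out. Hearts with the same number did not deviate together (correlations of deviations -0.0767, -0.0608 and 0.118), so the number was not taken to pair them; under the replicate block the count of collagen genes stayed at 0 with adjustment and 2 without, and the adjusted p was 0.0668 for Adamts3 and 0.0983 for Pcolce2. With array weights Ddr1 passed (adjusted p = 0.0385). The causes of these shifts were not tested, except that the filter tests fewer genes and leaving out a heart removes a sample. Another background correction was not run, since RMA values alone were used. With 3 hearts a group, observed differences smaller than the half-widths of their own intervals did not reach an unadjusted p under 0.05 in limma. True differences of that size could have been missed. Those intervals are not adjusted, and passing with adjustment took more. Col6a6 and Col28a1 had intervals that left out 0 but limma adjusted p of 0.314 and 0.263.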
